A study of Mus musculus with 12 samples.

Results

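Leukaemia cells of the T lineage were compared with normal thymocytes. Of the 12 Affymetrix mouse arrays of the study, 6 entered this comparison: 3 of T-cell acute lymphoblastic leukaemia (T-ALL) and 3 of CD4+CD8+ double positive (DP) thymocytes, all with wild-type MBD2. The leukaemia was driven by Notch1, and its cells were GFP+ bone marrow cells sorted from transplanted recipient mice once GFP+ cells were most of the white cells of the peripheral blood. The DP cells were sorted from the thymus of steady-state mice. The other 6 arrays hold the same 2 cell types from mice with deleted MBD2, and serve below as a second contrast that shares no array with the first. The form of Notch1, the strain, age and sex of the mice, and whether the 3 leukaemia arrays come from separate leukaemias or separate recipients are not stated in the labels. The p-values therefore measure only the spread between these samples, which may be technical. Leukaemia, transplantation, the GFP gate and the tissue (bone marrow against thymus) all changed together between the groups, and their parts cannot be told apart.

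Every probe set that the array annotation assigns to a single gene was used, and each gene was represented by the probe set that was brightest on average across the study. Genes of the X and Y chromosomes were left out. Of 18193 genes in all, 14831 autosomal genes passed a filter on low signal and were tested. Levels below are linear intensities; differences are log2(intensity + 16) in T-ALL minus DP, so that 1 is a doubling and the change of a dim gene is understated, and each log2 difference is given ± its standard error (SE) from limma. A gene rose or fell when its limma p, adjusted over all genes tested by the Benjamini-Hochberg method, was under 0.05.

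Notch1 is a receptor that is cut when it meets its ligand. The freed part enters the nucleus, joins the DNA-binding protein RBPJ and a MAML coactivator, and switches on genes such as Hes1, Dtx1, Ptcra and Myc, and lasting Notch1 activity is a common driver of T-ALL in humans and mice. DP thymocytes are small cells that have just left a burst of division; they carry both the CD4 and CD8 co-receptors, rearrange the T cell receptor alpha chain with the RAG recombinase, and are then selected on the receptor they made.

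Both groups read as T lineage cells. All 9 T cell markers lay above the highest control reading on every array (34.65, over 27 control probe sets read on the arrays where their added transcripts gave no signal), and all 7 DP markers did so on the thymocyte arrays. Cd3e, a chain of the T cell receptor complex, read 1910, 2273 and 2349 on leukaemia arrays 1 to 3 and 4068, 4489 and 4404 on thymocyte arrays 1 to 3, and the groups did not overlap. Markers of neutrophils and of red cell precursors, both bone marrow cells, were brighter in the leukaemia samples. Of 13 neutrophil markers 9 rose, with a summed intensity of 1261 to 2151 in T-ALL and 274.1 to 551 in DP. The brightest, S100a8, read 453.6, 367.2 and 794.7 in T-ALL and 127.4, 11.77 and 25.63 in DP. S100a9 had means of 460.9 and 45.46. Mpo and Elane lay at or near the control reading in both groups. Of 12 erythroid markers 7 rose, with sums of 765.9 to 985.7 against 498 to 560.4, and Hba-a1 stayed below the control reading. Mean intensities in T-ALL and DP were 105.9 and 18.1 for Slc4a1 and 110 and 41.23 for Epor. For Car2, the brightest, they were 168.5 and 148.3, with overlapping groups. The part of neutrophils and red cell precursors in the results was not tested. Of 15 monocyte markers 0 were called by limma (1 lower at an unadjusted p under 0.05). Of 8 MHC class II and dendritic cell markers 2 fell, and of 11 B cell markers 2 fell. Over all 14831 genes tested 19.9% rose and 14.3% fell. Sex-linked transcripts separated the groups: Xist read 4190 ± 543 (SD, n = 3) in T-ALL and 35.4 ± 9.07 in DP, and the Y-linked Eif2s3y 7.31 ± 0.29 and 395 ± 167, so sex and group cannot be told apart. Replicate 3 of both groups lacked signal of the added poly-A control transcripts and had a Gapdh 3' to 5' ratio of 2.48 in T-ALL and 3.68 in DP, against 0.97 to 1.14 on the other 4 arrays.

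Of the 14831 genes 5072 (34.2%) passed the test, 2957 of them higher in T-ALL (19.9%) and 2115 lower (14.3%). Of these, 1343 were at least 2-fold higher and 981 at least 2-fold lower, and at least 16-fold differences were found for 16 and 20 genes. The 3 leukaemia values lay wholly above or below the 3 thymocyte values for 6811 genes (45.9%), including 5059 of the genes called. The arrays of a group correlated at 0.979 to 0.993 and arrays of different groups at 0.900 to 0.915. The median SD between arrays on the log2 scale was 0.155 in T-ALL and 0.157 in DP. Lower values in such bulk samples can mean fewer cells of a type or less RNA per cell, which cannot be told apart. The counts of the marker lists above and of the groups below are to be read against the 34.2% of all genes called. The median log2 difference over all genes was 0.06. The lists were chosen with earlier results of these data known, so their counts are descriptive and are not an independent test.

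**Figure D1:**
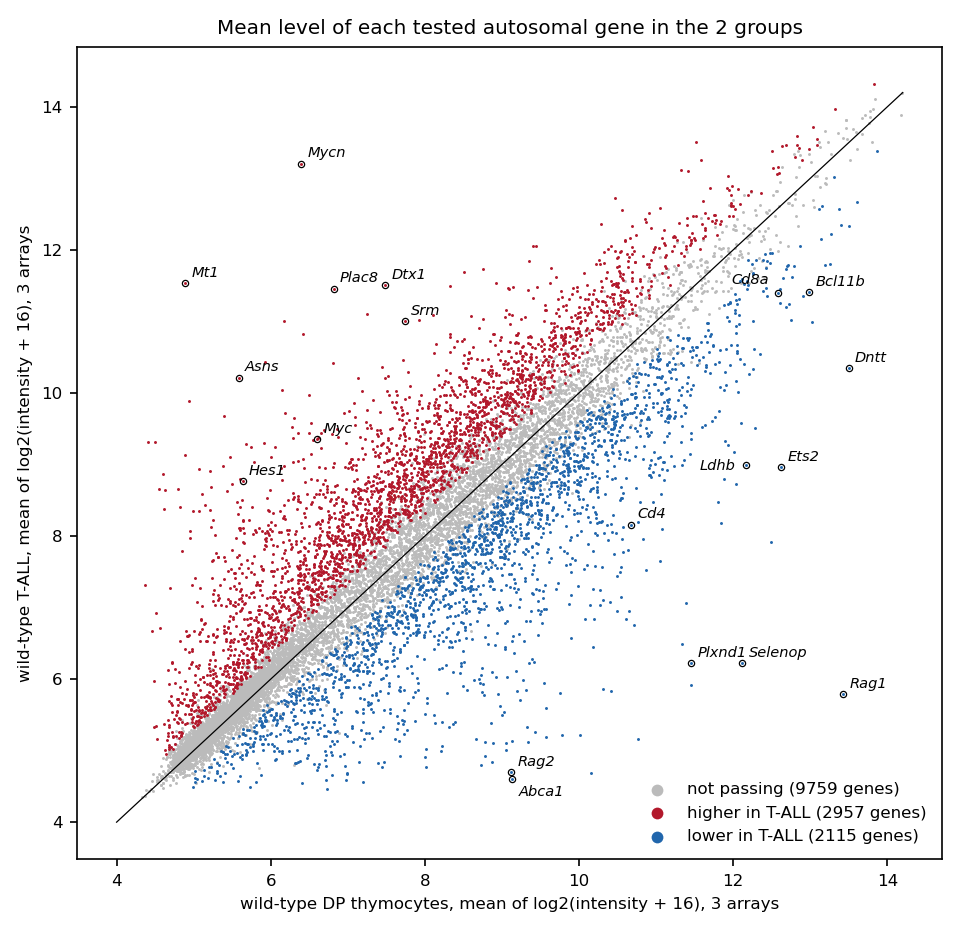
Mean log2(intensity + 16) of each of the 14831 tested autosomal genes in wild-type DP thymocytes (horizontal axis) and wild-type T-ALL (vertical axis), 3 arrays each; red points rose (2957), blue points fell (2115), grey points did not pass, and the line marks equal levels. Mycn and Mt1 lie farthest above the line, and Rag1 and Selenop farthest below it.

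Mycn, a relative of Myc, and Mt1 had the largest rises, in this order with the added constant of 16 and in the other order with 1 (log2 7.09 for Mycn and 7.68 for Mt1). Mycn read 10080, 9674 and 8616 in the leukaemias and 76.4, 75.3 and 54.9 in the thymocytes (log2 6.81 ± 0.14, adjusted p = 2.18e-06). The groups were 112-fold apart on the log2(intensity + 16) scale, on 1 of its 3 probe sets; the other 2 did not rise and are given with Myc below. Mt1, a metallothionein that binds zinc and other metals, read 2524, 3150 and 3206 against 20.1, 11 and 10.6, the latter below the control reading (log2 6.64 ± 0.16, adjusted p = 2.96e-06), and its relative Mt2 also rose (log2 3.90). Plac8, known from immature blood cells, rose by log2 4.64 and Bst1, a surface enzyme of the CD38 family, by log2 4.24. Nfib, a transcription factor of the nuclear factor I family that DP cells barely showed (8, 11.8 and 6.76), read 332, 477 and 356 in T-ALL. Cd163l1, a scavenger receptor known from gamma delta T cells, read 1328, 1055 and 1798 against 37.9, 44.2 and 54.1. The other genes among the 15 largest rises were Trnp1, Clvs1, Asns, Cenpv, Ahnak, Tnfaip2, Ctnnd2 and Dtx1, with log2 differences between 4.03 and 4.94. Genes with clone, Riken or Gm names and T cell receptor segments were left out of this ranking.

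Rag1 had the largest fall. This catalytic part of the V(D)J recombinase read 33.8, 42.3 and 42.1 in the leukaemias, close to the highest control reading, and 12420, 11990 and 8889 in the thymocytes (log2 −7.64 ± 0.15, adjusted p = 2.18e-06). Selenop, which encodes a secreted selenium carrier, read 69.1, 47.2 and 62.4 against 3806, 4313 and 5294 (log2 −5.89 ± 0.17, adjusted p = 5.29e-06). Plxnd1, a semaphorin receptor that guides DP cells within the thymus, fell, at log2 −5.23, the peptide transporter gene Slc15a2 at log2 −5.59 and Lsp1, an actin-binding protein of leukocytes, at log2 −5.54. Abca1, which exports cholesterol from cells, read 9, 7.69 and 8.35 in T-ALL and 405, 577 and 691 in DP. The remaining genes of the 15 largest falls were Nhsl1, F13a1, Ifi209, Atp1b1, Glcci1, Dnajc6, Wdr78, Rag2 and Cmah, between log2 −4.38 and −5.47. These 30 genes were named as the largest called differences whose groups did not overlap, with clone, Riken and Gm names and T cell receptor segments left out.

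**Figure D2:**
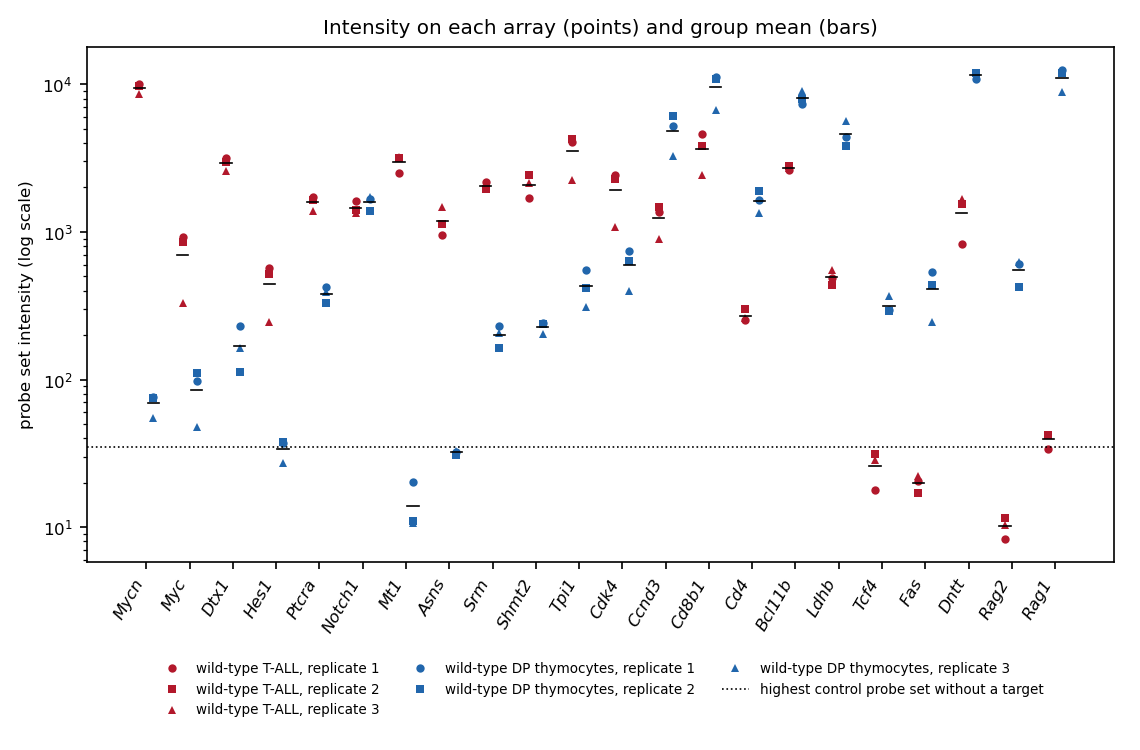
Probe set intensity (log scale) of 22 genes described in the text on each of the 6 arrays; red and blue points are T-ALL and DP arrays, their shapes the replicate numbers, short bars the group means, and the dotted line the highest control reading (34.65). Notch1 is the gene in the plot whose groups overlap; replicate 3 lies low in both groups for Myc, Hes1, Tpi1 and Cdk4.

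Most tested genes that Notch switches on rose in the leukaemias, while the transcript of the Notch1 receptor did not pass the test. Of 13 Notch targets tested 8 rose and 2 fell, with a median log2 difference of 1.12 against 0.06 over all genes. The 2 that fell were Trib2 (log2 −1.35, adjusted p = 0.00364) and Igf1r (log2 −0.68, adjusted p = 0.0043). Over the whole pathway list of 39 genes (receptors, ligands, processing enzymes, inhibitors and targets) 10 rose and 5 fell, and 14 and 9 with the replicate number as a block. Dtx1, a ubiquitin ligase of the pathway, read 3173, 2975 and 2586 against 232, 112 and 164 (log2 4.03 ± 0.23, adjusted p = 4.47e-05). Hes1, a repressor through which Notch acts in T cells, read 569.5, 519 and 246 against 37.3, 37.6 and 27.1 (log2 3.13 ± 0.30, adjusted p = 0.000311). The related repressor gene Heyl was at 349.7, 291 and 177 against 22.4, 19.6 and 22.5 (log2 2.90 ± 0.23, adjusted p = 0.00013). Replicate 3 was the lowest leukaemia array for all 3 of these genes, and still above every thymocyte array. Ptcra, the pre-TCR alpha chain that thymocytes use before the DP stage, was at 1737, 1633 and 1380 in T-ALL and 421, 332 and 389 in DP (log2 2.01 ± 0.13, adjusted p = 7.29e-05). Il2ra, a target in early thymocytes, read 49.9, 26.3 and 33 against 45.1, 38.5 and 40.9 and did not pass (log2 −0.16, adjusted p = 0.556).

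Notch1 itself read 1614, 1411 and 1346 in the leukaemias and 1683, 1379 and 1725 in the thymocytes, with overlapping groups (log2 −0.13 ± 0.13, adjusted p = 0.53). Which part of the transcript the probe set reads, and so whether it would show an introduced form of the gene, was not tested. Notch3, a second receptor of thymocytes, read 325, 422 and 438 against 251, 228 and 219.5 and rose (log2 0.71 ± 0.14, adjusted p = 0.00632). Of the 5 ligand genes tested 0 rose and 0 fell in limma, with 0 also at an unadjusted p under 0.05. Among the factors that modify or carry the signal, the sugar transferase gene Mfng rose (log2 0.86) while its relative Rfng and the coactivator gene Maml1 fell (log2 −0.68 and −0.89). Fbxw7, whose product marks active Notch1 and Myc for destruction, was at log2 −0.50 with adjusted p = 0.155, and fell with the replicate block (adjusted p = 0.00405). Another probe set of Fbxw7 was at log2 0.17 (limma adjusted p = 0.691).

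Mycn and Myc both rose, and some of the partners that oppose them fell. Myc read 919, 857 and 328 in T-ALL and 97.3, 110.0 and 47.9 in DP (log2 2.75 ± 0.43, adjusted p = 0.00258); replicate 3 was lowest in both groups, and the groups did not overlap. Of 12 genes of the MYC and MAX network 2 rose, these being Myc and Mycn, and 4 fell, a count of 2 without thymocyte array 1. Mxd4, which pairs with MAX to repress MYC sites, fell, at log2 −2.83, from 1781, 945 and 2320 to 257, 119 and 287. The rise of Mycn was read by 1 of its 3 probe sets. The second gave 21.1, 27.55 and 32.39 in T-ALL and 56.08, 64.29 and 42.41 in DP (log2 −0.70, adjusted p = 0.0171), and the third gave 26.76, 22.05 and 26.02 against 29.38, 32.54 and 38.7 (log2 −0.27, adjusted p = 0.122). On these 2 probe sets the leukaemia values lay below or near the highest control reading. Next to Mycn on chromosome 12, Ddx1 rose from 986, 996 and 720.5 to 2429, 2369 and 2067 (log2 1.34, adjusted p = 0.000641). Nbas, the next gene beyond Ddx1, also rose (log2 0.45, adjusted p = 0.0223). Other genes around Mycn fell: Cyria at log2 −1.25 and Trib2, also a listed Notch target, at log2 −1.35 (adjusted p = 0.00021 and 0.00364). Cyria was dim, with means of 7.78 in T-ALL and 40.3 in DP. Beside Myc, the non-coding gene Pvt1 rose by log2 1.98 (adjusted p = 0.000160) and Lratd2 fell, at log2 −2.13 (adjusted p = 6.99e-05). Gm20740, farther along on the side of Pvt1, rose by log2 1.88 (adjusted p = 0.000115). Genes near Mycn and Myc thus went both ways.

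Genes that build ribosomes rose almost as a whole. Of 53 tested genes of ribosome assembly 49 rose and 0 fell, with a median log2 of 1.60; limma at an unadjusted p under 0.05 also gave 0 lower. All 7 genes of the particles that modify ribosomal RNA rose (median 1.92), all 17 of small subunit assembly (median 1.46), 14 of 15 of large subunit assembly (median 1.76) and 6 of 8 of RNA polymerase I and its factors. Fbl, the methyltransferase of ribosomal RNA, read 6650, 6171 and 5331 against 1659, 1341 and 1508 (log2 1.998 ± 0.13, adjusted p = 6.48e-05). Polr1b, the second largest subunit of RNA polymerase I, read 619, 520.2 and 346 against 78.4, 90.8 and 80.3 (log2 2.33 ± 0.21, adjusted p = 0.000216). Rrp12, an export factor of ribosomal subunits, went from 34.5, 30.4 and 29.1 in DP to 404, 345 and 286 in T-ALL (log2 2.92 ± 0.14, adjusted p = 2.22e-05). Nhp2 (log2 2.62), Rrp1b (log2 2.73) and Mybbp1a (log2 2.34) led the remaining roles. The groups did not overlap for 49 of the 53 genes, beside 45.9% of all genes.

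The enzymes that make nucleotides and polyamines shared this direction, with 15 of 18 risen, 0 fallen (0 also at an unadjusted p under 0.05) and a median log2 of 1.54. Srm, spermidine synthase, read 2165, 1959 and 2007 against 229, 163 and 206 (log2 3.27 ± 0.14, adjusted p = 1.43e-05). Odc1, the rate-limiting enzyme of polyamine synthesis, read 2071, 2133 and 2052 against 626, 792 and 418 (log2 1.79 ± 0.22, adjusted p = 0.000836). Cad, which carries the first steps of pyrimidine synthesis, was at 1124, 1088 and 1307 and 115, 115 and 146 (log2 3.07 ± 0.13, adjusted p = 1.43e-05). Gart, an enzyme of purine synthesis, reached 2090, 1832 and 1306 from 371, 338 and 336 (log2 2.25 ± 0.18, adjusted p = 0.000136). The lowest leukaemia value lay above the highest thymocyte value in all 4.

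DNA replication genes were higher in T-ALL, and genes of mitosis less uniformly so. Of 50 replication genes 42 rose and 2 fell (median log2 0.998), including all 12 that license origins and all 5 that activate the replicative helicase. Gins2, a subunit of that helicase, read 748, 648 and 597 against 209, 179 and 209 (log2 1.66 ± 0.12, adjusted p = 0.000106). Mcm10, which helps to start the fork, read 922, 894 and 757 against 329.8, 297 and 307 (log2 1.41 ± 0.11, adjusted p = 0.000144). Pold2, a subunit of DNA polymerase delta, rose by log2 1.87, Tk1, thymidine kinase, by log2 1.86, and the cyclin gene Ccne1 by log2 1.18. Msh6, a mismatch repair gene, fell, from 1468, 1248 and 1027 to 639.8, 660.1 and 495 (log2 −1.04 ± 0.17, adjusted p = 0.0033), and E2f2 fell from 2131, 2183 and 1190 to 852, 1089 and 656 (log2 −1.05 ± 0.28, adjusted p = 0.0249). The call of E2f2 was lost when T-ALL array 1 or 3 or DP array 1 or 2 was left out (adjusted p = 0.0759, 0.0649, 0.0834 and 0.0748). Of 47 mitosis genes 17 rose and 1 fell (median log2 0.39); 30 rose with the replicate block and 9 without T-ALL array 2. Mybl2, a transcription factor of dividing cells, read 409.9, 431 and 386 against 156, 132 and 114 (log2 1.51 ± 0.13, adjusted p = 0.000184), and the checkpoint kinase gene Bub1b read 2551, 1894 and 2116 against 1135, 986 and 1155 (log2 0.98 ± 0.14, adjusted p = 0.00162).

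Among the cyclins, kinases and inhibitors of G1, the D cyclin of DP cells and several brakes were lower. Ccnd3, the D cyclin that thymocytes use downstream of the pre-TCR, read 1366, 1472 and 889 against 5199, 6074 and 3259 (log2 −1.94 ± 0.28, adjusted p = 0.0018). The partner kinase gene Cdk4 read 2415, 2283 and 1087 against 747, 640.2 and 395 (log2 1.64 ± 0.35, adjusted p = 0.011) and Cdk6 1840, 1858 and 1758 against 1388, 893 and 1077 (log2 0.71, adjusted p = 0.0136). Ccnd2 gave 72.1, 74.7 and 79.8 against 152, 60.6 and 89.8, overlapping (log2 −0.28, adjusted p = 0.501). The inhibitor genes Cdkn2d (555, 561 and 443 against 1986, 2230 and 1646) and Cdkn1b (270.5, 458 and 497 against 1364, 2319 and 1012) fell, at log2 −1.88 and −1.86. Cdkn1a, the p53 target p21, rose from 77.8, 84.9 and 69.2 to 134, 129 and 150.3 (log2 0.72, adjusted p = 0.00234). Cdkn2a, the Ink4a and Arf locus that is often deleted in T-ALL, read 20.7, 31.8 and 36.5 against 12.4, 8.24 and 13.9, below the highest control reading on 2 of the 3 leukaemia arrays and all 3 thymocyte arrays (log2 0.72, adjusted p = 0.0122). Without T-ALL array 2 the calls of Cdk4, Cdk6 and Cdkn2a were lost (adjusted p = 0.05003, 0.0542 and 0.0534). Over the list of 16, 5 rose and 6 fell, with 1 risen without that array.

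The genes that define DP thymocytes were lower in the leukaemias, by very different amounts. Of 23 such genes 20 fell and 1 rose, the immune checkpoint receptor gene Btla (log2 1.06), with a list median of −2.07. Since the thymocytes were sorted as CD4+CD8+ cells, the levels of the co-receptors in that group follow its gate. The leukaemia cells, sorted by GFP alone, held 253, 299.6 and 259.6 of Cd4 against 1654, 1886 and 1351 (log2 −2.51 ± 0.15, adjusted p = 4.43e-05), 3082, 2982 and 2123 of Cd8a against 6413, 7295 and 4844 (log2 −1.17 ± 0.20, adjusted p = 0.00411) and 4631, 3825 and 2442 of Cd8b1 against 11140, 10930 and 6670 (log2 −1.41 ± 0.29, adjusted p = 0.00862). So all 3 co-receptor genes remained well above the control reading in T-ALL. The recombination genes were not all alike in this. Rag2, the partner of Rag1, read 8.34, 11.6 and 10.4 against 604, 423 and 621 (log2 −4.42 ± 0.16, adjusted p = 1.12e-05), below the control reading on every leukaemia array, as Rag1 was near it. Dntt, terminal transferase, which adds bases at rearranged junctions, still read 830.1, 1537 and 1682 in T-ALL against 10880, 11880 and 11910 in DP (log2 −3.15 ± 0.26, adjusted p = 0.000156).

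Most factors of the DP stage fell as well. Ets2 fell from 6946, 6193 and 5746 to 529.5, 476 and 450.5 (log2 −3.65 ± 0.12, adjusted p = 7.76e-06) and Bcl6, a repressor, from 1062, 928 and 1549 to 84.7, 92.1 and 124 (log2 −3.34 ± 0.22, adjusted p = 6.28e-05). Satb1, a chromatin organiser of thymocytes, read 4886, 4806 and 5764 against 11130, 12450 and 11150 (log2 −1.17 ± 0.11, adjusted p = 0.000324). Bcl11b, which commits cells to the T lineage, stayed bright at 2612, 2782 and 2700 and was lower than the 7404, 7978 and 8970 of DP cells (log2 −1.58 ± 0.11, adjusted p = 7.64e-05). Tcf4, the E protein gene that encodes E2-2, read 17.8, 31.2 and 28.7 in T-ALL, below the control reading, and 294, 291 and 365 in DP (log2 −2.997 ± 0.16, adjusted p = 3.35e-05). Myb fell, at log2 −0.94. Runx3, a factor of CD8 and cytotoxic T cells, went the other way, from 105, 73 and 89.3 to 588, 386 and 488 (log2 2.25 ± 0.18, adjusted p = 0.000153). Gata3 and Ikzf1 did not pass (log2 −0.29 and −0.16, adjusted p = 0.088 and 0.593). Ikzf3 rose on its brightest probe set (log2 0.92, adjusted p = 0.00455) and was at log2 −1.05 on another (adjusted p = 0.00250), so its direction was not settled. Over the 22 T-lineage factors 2 rose and 7 fell, and 4 and 10 with the replicate block.

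Most of the genes that carry signals of the T cell receptor fell. Of 32 genes of receptor signalling 24 fell and 1 rose, with a median log2 of −0.97; 12 of 13 adaptors and effectors fell, and 6 of 10 inhibitors. Cd247, the zeta chain that carries most of the signalling motifs of the complex, read 878, 792 and 569 against 3786, 3720 and 2234 (log2 −2.08 ± 0.25, adjusted p = 0.000811). Themis, needed for positive selection, read 1022, 1170 and 890.3 against 4124, 5953 and 3141 (log2 −2.04 ± 0.23, adjusted p = 0.000668). Fyn, a kinase next to the receptor, fell from 742, 674 and 768 to 247, 226 and 276 (log2 −1.49 ± 0.11, adjusted p = 0.000114), Lcp2, the adaptor SLP-76, at log2 −1.64, and Prkcq, protein kinase C theta, at log2 −1.23. The brakes fell too: Dgka, a diacylglycerol kinase, read 759, 670.0 and 489 against 4289, 4432 and 2888 (log2 −2.56 ± 0.22, adjusted p = 0.0002) and the adaptor gene Sla was at log2 −1.74. The gene that rose was Cd2, an adhesion receptor, from 1120, 876 and 478 to 2800, 2517 and 1150 (log2 1.35 ± 0.42, adjusted p = 0.0427); its call was lost when T-ALL array 1 or 2 or DP array 2 or 3 was left out (adjusted p = 0.14, 0.146, 0.0751 and 0.0898). Among 16 genes of the receptor complex and of end joining 2 rose (Ptcra and Xrcc5) and 6 fell, with 4 and 8 under the replicate block.

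Of 28 progenitor genes and T-ALL oncogenes 6 rose and 1 fell, beside 34.2% of all genes called, with a median log2 of 0.05. Of 6 LMO and TAL genes and partners 4 rose: Lyl1, Lmo2, Lmo4 (log2 0.69, adjusted p = 0.0203) and Tal1 (log2 0.42, adjusted p = 0.0259). Leaving out 1 array lost the call of Lmo4 (DP array 1 or 3 or T-ALL array 2, adjusted p = 0.0591, 0.0506 and 0.0625) and of Tal1 (DP array 1 or 2 or T-ALL array 1 or 3, 0.0829, 0.0813, 0.0649 and 0.0731). Of 9 homeobox genes 0 were called by limma, with 0 also at an unadjusted p under 0.05. Lyl1, a basic helix-loop-helix factor of stem cells, read 70.0, 51.6 and 57.7 against 28.6, 30.9 and 29.7 (log2 0.72 ± 0.12, adjusted p = 0.00297). Lmo2, its partner, read 64.7, 51.9 and 55.2 against 33.4, 27 and 35.2 (log2 0.61 ± 0.12, adjusted p = 0.00639). Both passed the test at intensities below 100. Hhex was at 17.1, 30.7 and 24.3 against 23.5, 17.6 and 25.6 and Kit at 21.9, 32.3 and 35.2 against 32.1, 31.4 and 24.9, below the highest control reading on all but 1 of these arrays (adjusted p = 0.83 and 0.995). Bmi1, a Polycomb gene of self-renewing cells, read 1264, 1285 and 1492 against 538, 492 and 487 (log2 1.38 ± 0.11, adjusted p = 0.00013), and the adhesion receptor Cd44, high on early thymocytes and activated T cells, read 274, 240.3 and 304 against 67.9, 99.8 and 85.1 (log2 1.53 ± 0.15, adjusted p = 0.000333).

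Genes of egress, homing and cytokine sensing moved in both directions. Klf2, the factor that switches on thymic exit, read 965, 1176 and 950.1 against 167, 329.9 and 105 (log2 2.40 ± 0.35, adjusted p = 0.00196), and its target S1pr1, the sphingosine phosphate receptor that draws cells into blood, read 288, 111 and 152 against 48, 57 and 49.8 (log2 1.47 ± 0.30, adjusted p = 0.00828). Ccr9, the chemokine receptor of DP cells, fell from 7862, 8877 and 8276 to 1766, 1740 and 2693 (log2 −2.03 ± 0.18, adjusted p = 0.000225). Igfbp4 rose to 750.1, 574 and 619 from 126, 77.9 and 54.2 (log2 2.75 ± 0.25, adjusted p = 0.000255), and Gimap4, a GTPase gene of lymphocyte survival, to 1245, 765 and 954 from 315, 141 and 194 (log2 2.15 ± 0.29, adjusted p = 0.00146). Its neighbour in function Gimap8 fell, at log2 −2.06, the surface genes Cd52 and Cd96 at log2 −2.30 and −2.03. Selplg, the selectin ligand, and Cd47, the signal that restrains phagocytes, fell, at log2 −1.65 and −1.66, the integrin chain Itgb2 at log2 −1.53, while Itgb3 rose by log2 1.30. Over the 2 lists, 5 rose and 7 fell of 18 egress and maturity genes, and 6 and 10 of 33 homing and adhesion genes. Of 18 cytotoxic genes 1 rose and 1 fell (4 and 3 with the replicate block).

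Among cytokine receptors and the genes that serve them more fell than rose. Of 32 genes 19 fell and 3 rose (median log2 −0.59): 9 of 18 receptors fell, 7 of 9 kinases and STAT factors, and 3 of 5 feedback genes. Il7r, the receptor chain that keeps early and mature T cells alive, read 19.7, 18.5 and 24.3 in T-ALL, below the control reading, and 142, 75.7 and 60.3 in DP (log2 −1.49 ± 0.26, adjusted p = 0.00414). Il4ra read 88.7, 44.8 and 83.2 against 601, 598 and 368 (log2 −2.62 ± 0.27, adjusted p = 0.000415) and Ifngr1 458, 456 and 392 against 1686, 2017 and 1083 (log2 −1.79 ± 0.22, adjusted p = 0.000956). Stat4, which carries interleukin 12 signals, read 13.5, 18.8 and 17.6 against 274, 253 and 203 (log2 −2.98 ± 0.14, adjusted p = 1.88e-05), below the control reading on every leukaemia array. Jak1 and Jak2 fell, at log2 −1.39 and −1.31, and the feedback inhibitor genes Socs1 and Socs3 at log2 −1.56 and −1.59.

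**Figure D3:**
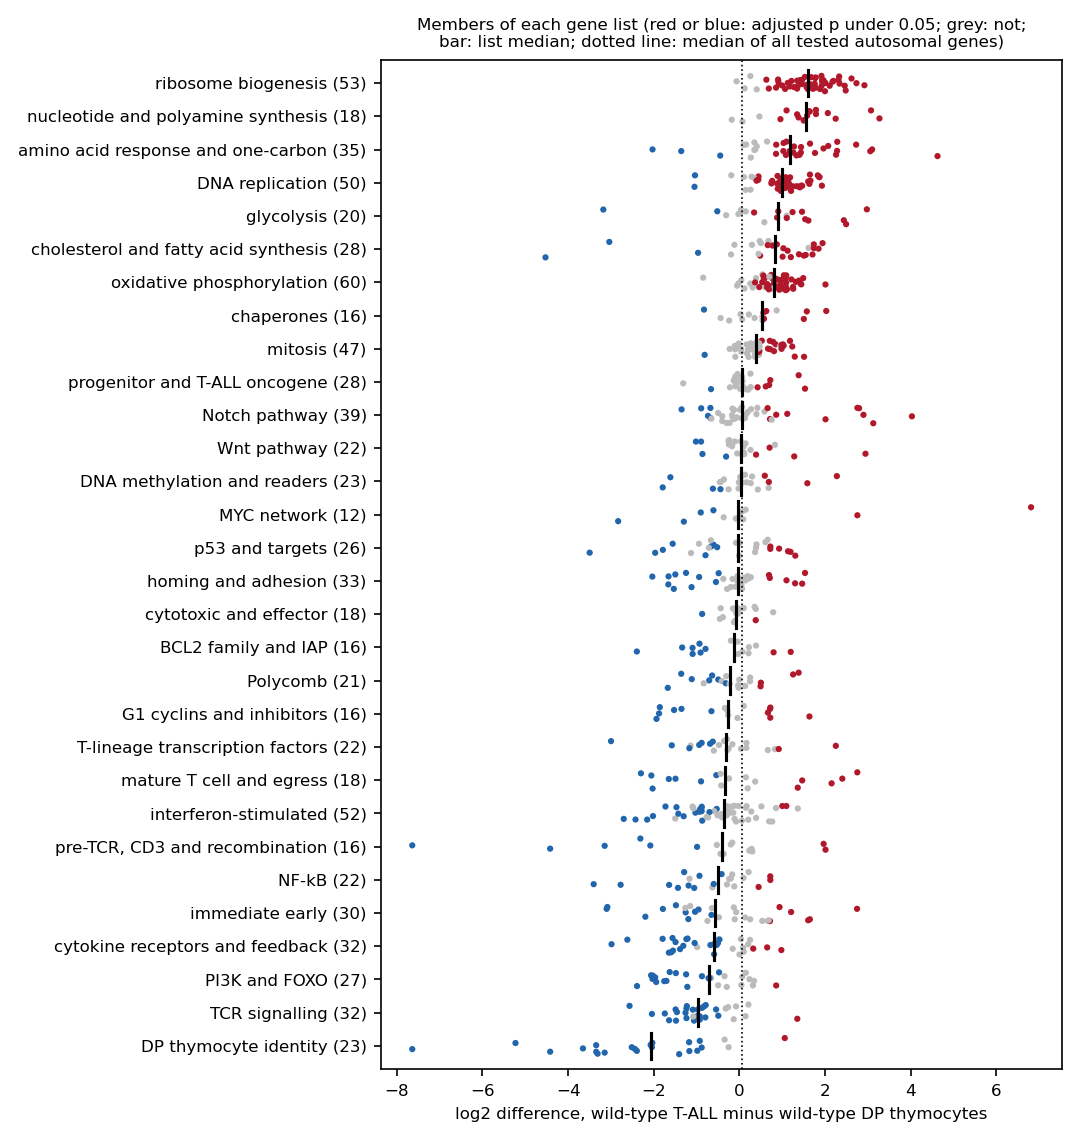
Log2 difference, wild-type T-ALL minus wild-type DP, of every tested member of the 30 gene lists (numbers of members in brackets), lists sorted by their median; red and blue points passed the test, grey points did not, black bars are list medians and the dotted line the median of all genes (0.06). Ribosome biogenesis has the highest median (1.60) and DP thymocyte identity the lowest (−2.07).

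Most genes of amino acid supply, controlled in part by the stress factor ATF4, and of the one-carbon pathway rose. Of 35 genes 24 rose and 3 fell, median log2 1.17. Asns, asparagine synthetase, the enzyme that lets leukaemia cells do without outside asparagine, read 952, 1139 and 1484 against 32.4, 31 and 33 (log2 4.63 ± 0.16, adjusted p = 1.00e-05), and its thymocyte values were all below the control reading. All 8 genes of serine synthesis and one-carbon transfer rose (median 2.27). Shmt2, the mitochondrial serine hydroxymethyltransferase, read 1692, 2426 and 2145 against 242, 237 and 203 (log2 3.10 ± 0.15, adjusted p = 2.54e-05) and Shmt1, its cytosolic twin, 854, 728 and 680.1 against 93, 70.3 and 67.1 (log2 3.06 ± 0.15, adjusted p = 2.14e-05). Slc7a5, a carrier of large neutral amino acids, read 1283, 1171 and 1141 against 189, 187 and 132 (log2 2.73 ± 0.15, adjusted p = 3.63e-05). Of 10 tRNA synthetase genes 9 rose, among them Aars (log2 1.44) and Gars (log2 1.40). Slc7a11, the cystine carrier, fell from 115, 215 and 105 to 18.8, 23 and 23.9 (log2 −2.03 ± 0.24, adjusted p = 0.00079).

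Promoters of this list were searched for TGATGNAA, the letters of the amino acid response element that ATF4 binds with a partner of the C/EBP family, on both strands of the 250 bases before each gene start (RefSeq sequences, GRCm38.p6). It was found in 7 of 31 list genes with a promoter entry (22.6%) and in 3.72% of all 25748 genes. Of these, 5 rose (Chac1, Asns, Got1, Aars and Gars), Slc7a11 fell and Tars did not pass. The sequences of the 6 genes called are shown, since they include the list's largest rise, Asns; each is written 5′ to 3′ on the strand of its gene, with the match, in either orientation, in capitals and up to 40 bases on either side.
Chac1 promoter, chr2:119351009-119351096, plus strand: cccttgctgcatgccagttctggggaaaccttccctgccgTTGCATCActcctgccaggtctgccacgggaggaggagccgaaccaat
Asns promoter, chr6:7693210-7693272, minus strand: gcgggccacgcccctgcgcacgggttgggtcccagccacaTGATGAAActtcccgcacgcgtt
Got1 promoter, chr19:43524660-43524747, minus strand: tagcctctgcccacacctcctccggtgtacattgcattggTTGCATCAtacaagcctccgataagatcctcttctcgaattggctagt
Aars promoter, chr8:111033690-111033777, plus strand: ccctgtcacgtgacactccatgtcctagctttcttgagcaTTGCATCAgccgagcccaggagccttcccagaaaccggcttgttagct
Gars promoter, chr6:55037931-55038000, plus strand: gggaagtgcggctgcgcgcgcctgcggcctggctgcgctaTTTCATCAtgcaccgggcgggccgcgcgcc
Slc7a11 promoter, chr3:50443632-50443719, minus strand: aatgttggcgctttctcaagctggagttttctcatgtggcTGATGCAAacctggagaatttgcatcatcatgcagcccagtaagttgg
Slc7a11 has a second match of the other orientation within the stretch shown. Got1, an aspartate transaminase, read 1029, 749 and 445 against 198, 176 and 104 (log2 2.07 ± 0.34, adjusted p = 0.00305), and Chac1, which degrades glutathione, 50.7, 68.1 and 93 against 25.9, 22.8 and 27.9 (log2 1.03 ± 0.18, adjusted p = 0.00437). A match describes these letters and is not a site shown to be bound. The E-box CACGTG, which MYC and MAX bind, was also searched; it was in 6.88% of the 25748 genes with a promoter entry, in 5 of 48 of the ribosome list (10.4%), in 3 of 15 of the nucleotide list and in 3 of 31 of the amino acid list (9.68%), Aars among them.

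Most genes of oxidative phosphorylation and of glycolysis rose. Of 60 genes of oxidative phosphorylation 46 rose and 0 fell (median log2 0.80); 1 was lower at an unadjusted limma p under 0.05, and 30 rose without T-ALL array 1. By complex, the counts were 21 of 24 in complex I, 5 of 9 in complex IV and 13 of 15 in the ATP synthase. Atp5g1, a gene of the ring of the synthase, read 2572, 2534 and 1602 against 623, 575 and 418 (log2 2.01 ± 0.23, adjusted p = 0.000646) and Ndufa10 of complex I 4301, 3893 and 3920 against 1433, 1423 and 1562 (log2 1.45 ± 0.10, adjusted p = 7.67e-05). In glycolysis 11 of 20 rose and 2 fell. Tpi1, triosephosphate isomerase, read 4078, 4234 and 2243 against 556, 419.5 and 308 (log2 2.98 ± 0.30, adjusted p = 0.000372), Aldoa, the muscle type aldolase, 3909, 3767 and 3316 against 679, 569.9 and 667 (log2 2.49 ± 0.12, adjusted p = 2.11e-05), and Pgam1 and Pkm rose by log2 2.44 and 1.61. Ldhb, the lactate dehydrogenase subunit that favours use of lactate, stood apart: it fell from 4420, 3821 and 5658 to 489, 439 and 552 (log2 −3.18 ± 0.17, adjusted p = 3.00e-05).

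In lipid metabolism, synthesis and export moved apart. Of 28 genes 16 rose and 3 fell (median log2 0.83). Sqle, squalene epoxidase, read 656, 794 and 568 against 189.6, 242 and 146 (log2 1.74 ± 0.20, adjusted p = 0.000658) and Cyp51, which removes a methyl group from lanosterol, 229.9, 255 and 286 against 70.9, 69.3 and 42.2 (log2 1.85 ± 0.18, adjusted p = 0.000314). Fasn, fatty acid synthase, read 1116, 1105 and 988 against 324, 286 and 316 (log2 1.74 ± 0.10, adjusted p = 4.74e-05), and Acaca, which makes its substrate, rose by log2 1.94. Both cholesterol exporters fell: Abca1, given above, at log2 −4.53, and Abcg1 from 1525, 1795 and 1148 to 197, 204 and 109 (log2 −3.04 ± 0.26, adjusted p = 0.000189). Mitochondrial chaperones rose in all 3 cases: Hspa9 (log2 2.03), Hspd1 (log2 1.57) and Hspe1 (log2 1.504), within a chaperone list of 6 risen and 1 fallen of 16.

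Most genes that restrain cell death fell, and those that promote it went both ways. Of 16 genes of the BCL2 and IAP families 2 rose and 7 fell, including 5 of the 6 that restrain apoptosis. Bcl2l1, whose long form BCL-XL keeps DP cells alive, read 155, 175 and 166 against 959.9, 1476 and 579 (log2 −2.39 ± 0.30, adjusted p = 0.00104), and Birc2 403, 398 and 344 against 1003, 1288 and 739 (log2 −1.34 ± 0.20, adjusted p = 0.00213). Bcl2 did not pass on its brightest probe set (186, 179 and 162 against 181, 209 and 223, adjusted p = 0.245), but was lower on 3 of its other 4 (log2 −1.91, −1.60 and −0.58, with limma adjusted p = 0.000765, 0.0181 and 0.0489 among all probe sets). Among promoters of death, Bid rose (log2 1.20) and Bmf fell (log2 −1.09). Fas, the death receptor, fell to below the control reading, 20.4, 17.1 and 22.3 against 539, 438 and 247 (log2 −3.50 ± 0.26, adjusted p = 0.000113). Over 26 genes of the p53 pathway 6 rose and 8 fell, 10 and 12 with the replicate block, and 5 fell without T-ALL array 2; Sesn1 and Btg2 were lower (log2 −1.97 and −1.79), Cdkn1a higher.

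In 3 further signalling lists more members fell than rose. In the PI3K and FOXO list 16 of 27 fell and 1 rose, median log2 −0.72, with 8 of 10 FOXO factors and targets fallen. Ccng2, a cyclin gene that FOXO factors switch on, read 415, 475 and 494 against 1997, 2028 and 1897 (log2 −2.06 ± 0.10, adjusted p = 2.67e-05), and Txnip, which limits glucose uptake, 403, 305 and 358 against 1790, 1245 and 1452 (log2 −2.02 ± 0.17, adjusted p = 0.00016). Pik3ip1, an inhibitor of PI3K, fell from 1634, 1338 and 1437 to 393, 307 and 344 (log2 −2.03 ± 0.13, adjusted p = 6.10e-05). In the NF-kB list 10 of 22 fell and 3 rose (0 rose without T-ALL array 1); Ltb, lymphotoxin beta, read 177, 157 and 225 against 1502, 2664 and 2313 (log2 −3.40 ± 0.23, adjusted p = 7.72e-05) and Tnfaip3, the brake A20, 789, 804 and 573 against 5582, 8139 and 2705 (log2 −2.77 ± 0.38, adjusted p = 0.00148). Immediate early genes were divided, 6 risen (3 without T-ALL array 2) and 10 fallen of 30: Fosb rose from 50.4, 104 and 44.7 to 299.6, 857 and 515 (log2 2.75 ± 0.41, adjusted p = 0.00203) and Btg1, which slows division, fell from 4041, 5380 and 2465 to 364, 509 and 432 (log2 −3.08 ± 0.28, adjusted p = 0.000244).

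More interferon-stimulated genes fell than rose, and thymocyte array 1 held the highest value of Gbp2, Samd9l and Irf9. Of 52 genes 17 fell and 2 rose (median log2 −0.37); 22 and 7 did so with the replicate block, and 9 fell without T-ALL array 2. Gbp2, a guanylate-binding protein, read 44.7, 45 and 55.1 against 441, 356 and 408 (log2 −2.70 ± 0.12, adjusted p = 1.88e-05), and Gbp7 102, 98.2 and 124 against 628, 577 and 752 (log2 −2.43 ± 0.14, adjusted p = 4.10e-05). Samd9l read 415, 295 and 383 against 1485, 800.2 and 831 (log2 −1.43 ± 0.26, adjusted p = 0.00473), and Irf9, a subunit of the factor that interferon activates, 125, 105 and 117 against 309, 182 and 207 (log2 −0.89 ± 0.19, adjusted p = 0.0102). Psmb9, a subunit of the immunoproteasome, rose (log2 1.001, adjusted p = 0.0075). Thymocyte array 1 also held the highest values of H2-Aa, Cd74 and Lyz1, genes of antigen-presenting and myeloid cells. H2-Aa, an MHC class II chain, read 424, 160.1 and 93.6 in DP and 41, 49.2 and 39.7 in T-ALL (log2 −1.79 ± 0.46, adjusted p = 0.0213), Cd74, the invariant chain, 297, 146 and 101 and 42.4, 68 and 58.8 (log2 −1.34 ± 0.35, adjusted p = 0.0228), and Lyz1, a lysozyme, 320.5, 66.9 and 94.9 and 85.6, 55.7 and 64.5 (log2 −0.80 ± 0.49, adjusted p = 0.273). The call of H2-Aa was lost without T-ALL array 1, 2 or 3 (adjusted p = 0.0725, 0.0628 and 0.0511) and that of Cd74 without T-ALL array 1 or 2 (0.0859 and 0.054). Other probe sets of H2-Aa were at log2 −1.20 and −0.42 (limma adjusted p = 0.0396 and 0.421). H2-Ab1, another MHC class II chain, read 246.3, 144.2 and 132.7 in DP and 226.6, 259.1 and 225.1 in T-ALL. Of the 8 tested markers of that list 4 had a positive and 4 a negative difference. Summed intensities of MHC class II and dendritic cell markers were 526 to 1313 in DP and 499 to 597.6 in T-ALL, and those of monocyte markers 582.3 to 1314 and 612.1 to 661. Without thymocyte array 1, 17 interferon-stimulated genes fell; the part of these markers in the result was not tested.

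Genes of DNA methylation passed the test at a share close to that of all genes, with single large differences. Dnmt3b, a de novo DNA methyltransferase, read 452, 406 and 433 against 76.6, 61.4 and 93.2 (log2 2.28 ± 0.14, adjusted p = 5.53e-05), and Tet2, which oxidises methylcytosine, 115, 67.8 and 93.9 against 304, 346 and 416 (log2 −1.79 ± 0.19, adjusted p = 0.000484). Mbd2, the methyl-CpG reader whose deletion the study examined, read 957, 742 and 762 against 1372, 993 and 1043 in these wild-type samples and did not pass (log2 −0.46, adjusted p = 0.0718), though it fell with the replicate block (adjusted p = 0.00535). Another probe set of Mbd2 was at log2 0.22 (limma adjusted p = 0.868). Zbtb38 and Zbtb4, zinc finger readers of methylated DNA, moved in opposite ways (log2 1.59 and −1.61). The list gave 4 risen and 4 fallen of 23 (7 and 6 with the replicate block). Polycomb genes gave 4 and 7 of 21 (as few as 2 and 4 when 1 array was left out), with the H3K27 demethylase gene Kdm6b lower (log2 −1.36). Of 22 Wnt pathway genes 4 rose and 4 fell (0 without T-ALL array 2); the secreted antagonist Wif1 went from 4.19, 5.06 and 4.87 to 83.1, 153 and 226 (log2 2.94 ± 0.30, adjusted p = 0.000374).

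No autosome as a whole reached the level of a gained or lost copy. Over 7898 genes with a mean intensity above 100, the median level of each of the 19 autosomes relative to the thymocytes lay between −0.134 and 0.085 (log2) on the leukaemia arrays, and between −0.042 and 0.025 on the thymocyte arrays. The median of all 7898 genes on the same array was subtracted from each value. For scale, a gene present in 3 copies in place of 2 and expressed in proportion would lie at log2 0.585. Chromosomes 1 and 6 had the lowest leukaemia medians, below −0.09 on each of the 3 arrays.

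**Figure D4:**
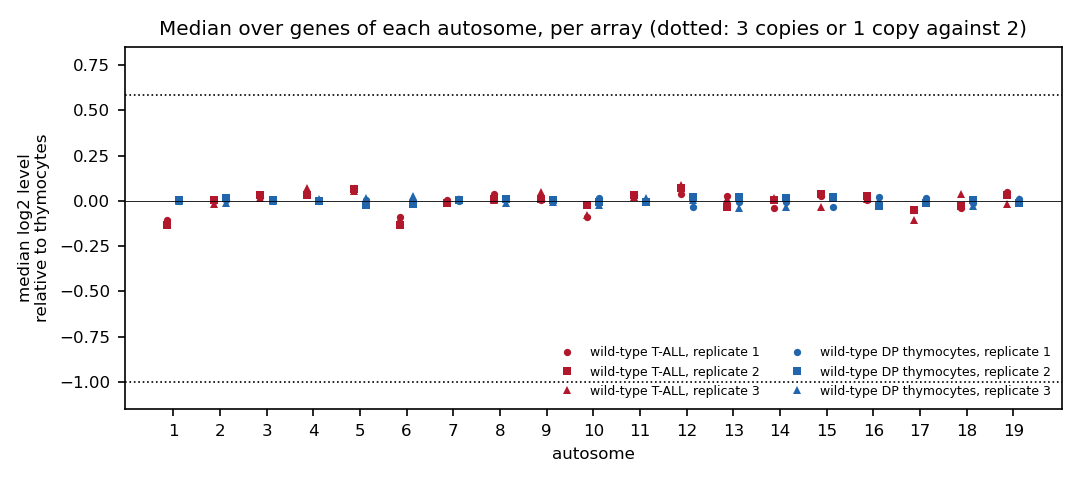
Median log2 level of the genes of each autosome relative to the mean of the 3 DP arrays, for each of the 6 arrays (red T-ALL, blue DP, shapes the replicate numbers). The median of all these genes on the same array was subtracted. Dotted lines mark the level of 3 copies or 1 copy against 2. All points lie between −0.134 and 0.085.

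The same leukaemia to thymocyte contrast in mice with deleted MBD2, made on 6 other arrays, called 4418 of the 14831 genes (29.8%), 2783 higher and 1635 lower (2262 and 2294 after quantile normalization). Of the 5072 genes called in wild type 86.8% had the same sign there, against 69.0% of all genes. In both contrasts 2767 genes were called in the same direction, which is 54.6% of the wild-type calls and 62.6% of the calls with deleted MBD2, and 203 were called in opposite directions. Across genes the 2 sets of log2 differences correlated at r = 0.623; genes are not independent replicates. Shared changes with their values in wild type and then with deleted MBD2 were Mycn (log2 6.81 and 5.85), Mt1 (6.64 and 5.39), Asns (4.63 and 4.20), Dtx1 (4.03 and 4.81), Rag1 (−7.64 and −8.35) and Abca1 (−4.53 and −4.54).

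The difference between the 2 contrasts was tested with all 12 arrays fitted together and passed for 1891 genes (12.8%), in 709 of them with the wild-type contrast above the other and in 1182 below; 1233 of these are among the genes called in wild type. Wild-type leukaemias were also unlike those with deleted MBD2 in sex-linked transcripts (Xist 4190 ± 543 against 36.5 ± 4.36, Eif2s3y 7.31 ± 0.29 against 519 ± 51.5), so sex and genotype cannot be told apart in this test. The added poly-A control transcripts gave signal on replicates 1 and 2 of both wild-type groups. With deleted MBD2 they did so on leukaemia replicate 1 and on no thymocyte array. Gapdh 3' to 5' ratios there ran from 0.96 to 2.98 in leukaemias and from 1.12 to 3.33 in thymocytes. The part of this imbalance was not tested. Ptcra, higher than in DP cells in wild type (log2 2.01), was lower with deleted MBD2 (log2 −3.34, difference 5.35, adjusted p = 2.82e-08). Cd8b1 was at 3632 ± 1107 (SD, n = 3) in wild-type leukaemias and 62.3 ± 33.2 in the others, a difference of contrasts of 5.34 (adjusted p = 2.76e-05). Cttn, which organises cortical actin, gave the largest positive difference of all genes tested, log2 2.50 in wild type and −3.58 with deleted MBD2. In the other direction, Cpa3, a mast cell protease also made by progenitors, read 20.7 ± 3.16 in wild-type leukaemias and 7622 ± 622 in the others (difference −7.65, adjusted p = 2.74e-10). Cd93 (difference −7.001), Hhex (−6.08) and the granzyme gene Gzmb (−5.97) gave the same picture.

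**Figure D5:**
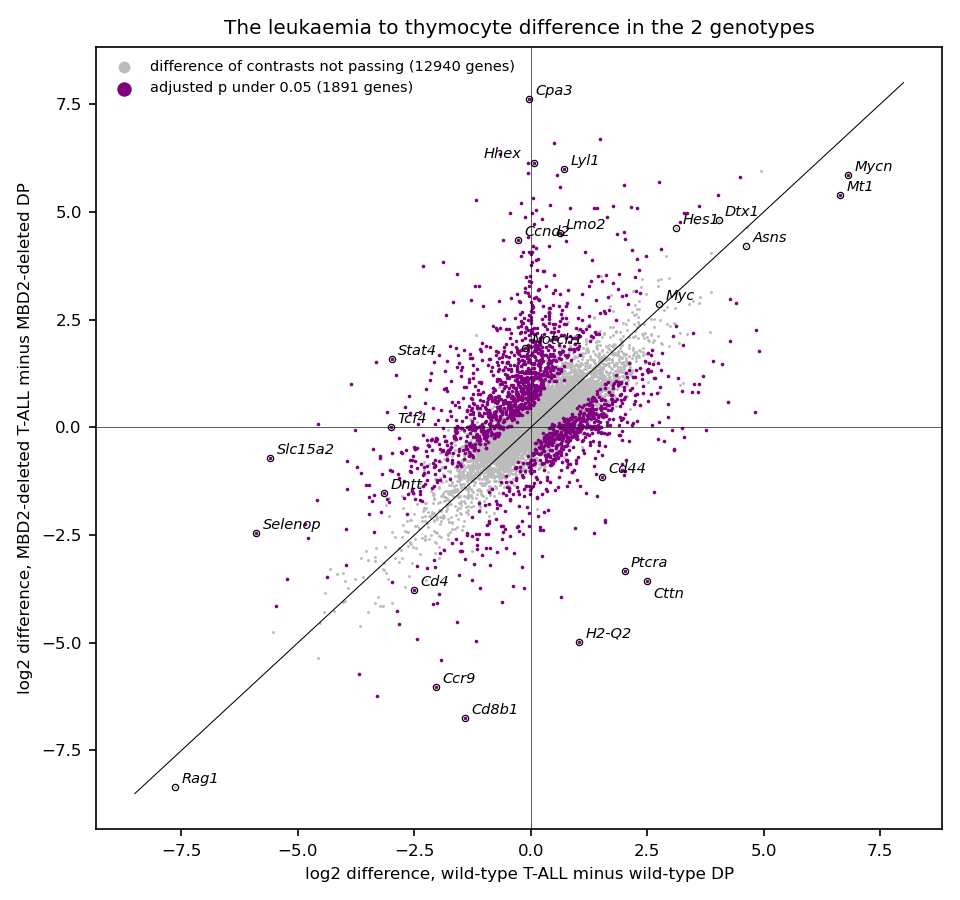
Log2 difference between leukaemia and DP thymocytes of the 14831 genes in wild type (horizontal axis, 6 arrays) and with deleted MBD2 (vertical axis, 6 other arrays); purple points are the 1891 genes whose 2 differences differed at adjusted p under 0.05, and the diagonal marks equal differences. Mycn, Mt1, Asns and Rag1 lie far out on both axes, Cpa3 and Hhex near 0 on the wild-type axis, and Ptcra and Cttn are on opposite sides of 0.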

How the data were processed

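Sorted cells were profiled on Affymetrix arrays from total RNA, per the labels' protocols. The authors deposited 1 intensity per probe set and array on a linear scale (3.07 to 21620); no source used here gives their summarization and normalization. On the arrays, medians of log2(intensity + 16) lay between 5.72 and 5.78, and the number of arrays, 3 a group, limits the precision. Of 45101 probe sets, 34945 have 1 gene symbol, 932 several and 9160 none, and 64 are controls; 34741 of the single-gene sets matched the gene table. Each of 18193 genes was read by its probe set with the highest mean, kept if above the array's 25th percentile on at least 3 of 12 arrays (15420 genes, of which 14831 on autosomes), and tested on log2(intensity + 16) with limma 3.58.1 (lmFit and eBayes, R 4.3.3), with p-values adjusted over all 15420 genes. The main fit used the 6 wild-type arrays without a block; the contrast with deleted MBD2 used its own 6, and the difference of the contrasts all 12. Figures and summaries used Python 3.11.15, pandas 2.3.3, numpy 2.4.6 and matplotlib 3.10.9.

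Arrays of equal replicate number varied together: deviations from the group means correlated at 0.449, 0.445 and 0.588 for numbers 1, 2 and 3, and at −0.504 to 0.184 otherwise. The labels do not say that these samples are paired. Replicate 3 of both groups also shared the missing poly-A signal and the high Gapdh ratio. Members, the 30 gene lists and the marker lists were chosen with earlier results of these data known. Named genes were the 15 largest called differences each way with groups apart, up to 3 called members per role of a list with a set of core genes, the largest differences between contrasts, markers, and neighbours of Mycn and Myc. Genes holding the promoter motif were also named. Clone, Riken and Gm names and T cell receptor segments were left out when the largest differences were ranked. Alternatives changed the added constant, filter, scaling, probe set rule, model, block and arrays used. The fit was tested on simulated data. Some genes of the lists are not reported here.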

Additional observations from a re-analysis of the deposited data

Results flagged for a closer look

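A set of 188 tested genes named here was checked. Of these, 89 were marked because the change from DP thymocyte to leukaemia differed between wild type and deleted MBD2 (limma, adjusted p under 0.05). Nbas, Gm20740, S100a8, S100a9, Slc4a1, Epor, Car2 and Igf1r were not in this set. In 34 the wild-type change lay above the other and in 55 below, and in 25 the 2 changes had opposite signs. Each value below is the wild-type log2 difference minus that with deleted MBD2. Sex-linked transcripts also differ between the 2 kinds of leukaemia, and their part was not tested. Poly-A control signal and Gapdh ratios were not balanced between the genotypes either, and their part was not tested.

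Genes of progenitors, mast cells and cytotoxic cells gave large negative differences: Cpa3 −7.65, Cd93 −7.00, Hhex −6.08, Gzmb −5.97, Lyl1 −5.26, Kit −4.02 and Lmo2 −3.90. In each of these 7 genes the leukaemias with deleted MBD2 rose and the wild-type leukaemias were at log2 −0.66 to 0.72. Among receptors, co-receptors and factors of the T lineage the differences ran both ways, with Ptcra 5.35, Cd8b1 5.34, Cd8a 3.80, Cd4 1.27, Ccr9 4.00, Cd2 3.80, Cd44 2.69, Satb1 1.32 and Ikzf3 1.91 on one side and Notch1 −1.96, Tcf4 −3.01, Gata3 −1.01, Myb −0.74, Dntt −1.63, Plxnd1 −1.70, Btla −1.07 and Cd163l1 −1.30 on the other. Notch1, which did not pass the test in wild type, was at log2 1.83 with deleted MBD2.

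For most cell cycle and growth genes marked the wild-type change lay above: E2f2 1.91, Gins2 1.25, Ccne1 1.19, Bub1b 1.02, Pold2 0.89, Mybl2 0.87, Mcm10 0.57, Srm 1.36, Nhp2 1.15, Mycn 0.96 and Shmt1 0.94. It lay below for Ccnd2 −4.63, Cdk6 −1.43, Cdkn2a −0.71, Mxd4 −1.66 and Ccng2 −1.17. It lay above for the lipid enzymes Acaca 1.78, Sqle 1.20 and Fasn 1.16. The wild-type change lay below for these genes of cytokine and receptor signalling: Stat4 −4.58, Il7r −2.69, Jak1 −1.62, Jak2 −1.17, Fyn −1.46, Lcp2 −1.45, Prkcq −1.28, Pik3ip1 −1.79, Txnip −1.74, Sesn1 −0.97 and Ltb −1.69. It also lay below for the interferon genes Gbp2 −3.17, Gbp7 −2.50, Ifi209 −2.22 and Irf9 −1.61 and for the homing and maturity genes other than Ccr9 and Cd44, given above, Gimap4 −2.96, Igfbp4 −2.94, Itgb3 −2.10, Gimap8 −1.73, Selplg −1.46 and Cd47 −1.46. Cell death genes gave Bcl2 −2.62, Bmf −1.38 and Bid 1.19, and chromatin and growth-control genes Tet2 −1.95, Dnmt3b −1.63, Btg1 −1.42 and Wif1 2.41.

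Among the remaining large wild-type changes, Cttn (6.08) rose in wild type and fell with deleted MBD2 (log2 2.50 and −3.58). The rise was greater in wild type for Bst1 3.66, Clvs1 3.13, Ctnnd2 2.64, Mt2 2.37, Ahnak 2.29, Cenpv 1.51, Tnfaip2 1.29 and Mt1 1.25 and smaller for Nfib −1.37. The fall was deeper in wild type for Slc15a2 −4.87, Selenop −3.44, Atp1b1 −2.88, F13a1 −2.60, Nhsl1 −1.33, Lratd2 −1.83 and Cmah −0.91. Dnajc6 (−4.63) fell in wild type and was at log2 0.07 with deleted MBD2. Xist was marked because it lies outside the autosomal comparison and read 4190 in wild-type leukaemias against 35.4 in wild-type thymocytes.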

How the results depend on the processing

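Counts of genes risen and fallen (2957 and 2115) stayed within 1.5 times under other added constants, filters, scalings and models: from 2748 risen with quantile normalization to 3947 with the replicate block, and from 1925 fallen with centring on the 75th percentile to 2829 with the replicate block. The replicate block, which pairs arrays of equal number, kept all 5072 calls in the same direction. It changed no call of the 188 genes checked other than 4 it added. With deleted MBD2 it gave 2205 and 1231, and 1960 for the difference of the contrasts. A fit of replicates 1 and 2 alone, added after the data were seen, called 3245 and 2316, with 4682 of the 5072 still called. Counts over single probe sets were 4468 and 3705, and a 2-fold minimum left 1343 and 981; more features and a stricter rule make up these settings. Leaving out 1 array gave 2277 to 2917 risen and 1508 to 2276 fallen, with deleted MBD2 2016 to 2810 and 1209 to 1572, and 1478 to 2047 for the difference of the contrasts. Of the 188 genes checked, the calls of 10 were lost when an array was left out, those given in the text and Mpo. List medians near 0 changed sign for the progenitor, DNA methylation and Wnt lists under quantile normalization, and for the MYC, cytotoxic, homing and p53 lists under centring on the 75th percentile.

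Directions of the 188 genes checked turned, among these settings, on other probe sets of a gene: Mycn −0.70 and −0.27, Ikzf3 −1.05, Nhsl1 0.17 and 0.23, Slc15a2 0.0074 and 0.16, Dtx1 −0.0078, Cad −0.045, Tcf4 0.12, Zbtb4 0.115, Wdr78 0.10, Cd93 0.0467 and Bmf 0.0233 on the log2 scale. Turns with no call on either reading, such as those of Mbd2 and Fbxw7, are not listed. The cause of the turns was not tested. Of 5522 other probe sets of called genes, 4858 had the same direction. Of all 5522, 2467 were called in the same direction and 58 in the opposite one. With 3 arrays a group, simulated data of 15420 genes gave back 0% of 200 genes changed by log2 0.5, 41.5% at 1 and 90% at 2. False calls numbered 0, 5 and 16. Only these 200 genes were changed, whereas 34.2% of genes were called in the real data. The adjustment for many tests was thus stricter in the simulation, and its shares do not carry over. In the real data Tal1 passed at log2 0.42.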
